A study of Mus musculus with 96 samples.

Results

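Transcripts of 10 genes of glutathione and peroxide defence, Gstm1, Gpx1, Gpx4, Gsr, Prdx1, Prdx2, Prdx5, Cat, Sod1 and Txn1, were followed in 96 single bone marrow cells. They were chosen by name, and all 10 have a row among the 23955 genes of the expression table. Gstm1, Gsr and Prdx5 were high in cells of the states proNeu-1 and IG2 and low or undetected in most other cells, with means 9.03, 5.87 and 5.85 log2 units higher in proNeu-1 than in Multi-Lin-1. By mean log2 level over all cells, Gpx1 and Sod1 ranked 5 and 12 of the 8044 genes detected in at least 10% of cells. Both differed little between states. Cat was lower in IG2 and in cells without a state than in Multi-Lin-1.

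The cells come from C57BL/6 mice with the genotype ThPOK-/-, a knockout of Zbtb7b, which encodes the transcription factor ThPOK. They are labelled as granulocyte-monocyte progenitors (GMP), were enriched for CD117 (the receptor Kit) and sorted, and were captured on a Fluidigm C1 chip before SMARTer amplification of the cDNA. The authors name a state for 69 cells, which gives 12 proNeu-1 cells, 31 IG2 cells, 27 cells without a state and 26 Multi-Lin-1 cells. What the state names mean and which genes made them is not given in the sources used here. All groups share the knockout and no animal is named, so the 96 cells are 1 sample of 1 genotype. Wild-type cells of the study were not analysed here, and nothing below says what the knockout did.

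Superoxide formed by respiration or by the phagocyte oxidase is turned into hydrogen peroxide by superoxide dismutases. Peroxide is then removed by catalase, by glutathione peroxidases, which use glutathione, and by peroxiredoxins, most of which are reset by thioredoxin. Glutathione reductase restores oxidised glutathione with NADPH, and glutathione transferases attach glutathione to reactive compounds. In granulocyte precursors this system stands beside myeloperoxidase, a granule enzyme that consumes peroxide.

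Promoter sequence is given for 2 genes that were high together, Gstm1 and Prdx5, and for the 2 genes whose window holds the core of the antioxidant response element, Prdx1 and Sod1. The sequences are RefSeq's for GRCm38.p6, run 5′ to 3′ in the direction of the gene, and end just before the annotated start, except that of Prdx1, which is the distal stretch of its window. Capitals mark matches on either strand to 5 motifs, the CCAAT box by its name, the GC box (GGGCGG), the AP-1 site (TGANTCA), the C/EBP core (TTGCNNAA) and the core of the antioxidant response element (TGACNNNGC).
Gstm1, chr3:108017974-108018223, minus strand: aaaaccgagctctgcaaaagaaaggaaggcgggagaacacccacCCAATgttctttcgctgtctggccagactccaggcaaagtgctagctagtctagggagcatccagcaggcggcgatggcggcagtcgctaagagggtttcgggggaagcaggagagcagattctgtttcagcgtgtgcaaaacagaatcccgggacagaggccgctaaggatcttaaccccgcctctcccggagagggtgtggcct
Prdx5, chr19:6910107-6910356, minus strand: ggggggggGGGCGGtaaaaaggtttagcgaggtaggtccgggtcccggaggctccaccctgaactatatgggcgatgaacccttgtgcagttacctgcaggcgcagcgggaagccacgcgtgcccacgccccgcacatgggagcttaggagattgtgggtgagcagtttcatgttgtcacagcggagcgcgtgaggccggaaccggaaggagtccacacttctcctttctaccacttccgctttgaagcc
Prdx1, chr4:116685349-116685488, plus strand: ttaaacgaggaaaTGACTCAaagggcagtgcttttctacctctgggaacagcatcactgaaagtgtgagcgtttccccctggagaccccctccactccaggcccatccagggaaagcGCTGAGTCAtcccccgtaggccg
Sod1, chr16:90220512-90220761, plus strand: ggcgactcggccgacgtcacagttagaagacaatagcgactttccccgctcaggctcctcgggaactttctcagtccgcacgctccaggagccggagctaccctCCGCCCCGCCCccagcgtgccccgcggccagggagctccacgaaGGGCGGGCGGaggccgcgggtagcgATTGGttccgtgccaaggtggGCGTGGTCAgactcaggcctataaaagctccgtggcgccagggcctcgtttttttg

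Of the 10 genes, 9 have a window of 250 bases before the start in that table, Gsr being the exception. These 9 genes have 13 windows, since some have several annotated starts. Gstm1 is among them, and its window printed above holds 1 CCAAT match. A further Gstm1 window, chr3:108017819-108018068, holds 2 and is not printed. The antioxidant response element core was found in 2 of the 13 windows, those of Prdx1 and Sod1, and in 10.2% of all 32851 promoter windows. In Prdx1 it overlaps 1 of the 2 AP-1 matches. The AP-1 site was in 1 of the 13 windows, against 6.75% of all, and the C/EBP core in 0 of the 13, against 9.56%. CCAAT was in 7 of the 13 windows, against 33.8% of all, and the GC box in 8, against 32.7%. Counted by gene, CCAAT was found in 4 genes and the GC box in 6. A match shows only that these letters lie in the window.

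Genes detected per cell, at a TPM (RSEM's transcript abundance, adjusted for transcript length and scaled to a sum of 1e+06 in each cell) of 1 or more, had medians of 4127.5 in proNeu-1, 3940 in IG2, 2613 in cells without a state and 2950 in Multi-Lin-1. Read depth is unknown. Primary granule markers (Mpo, Elane, Prtn3, Ctsg, Ms4a3) were taken to mark the granulocytic side of GMP. They summed to a median TPM of 71750.4 in proNeu-1, 38282 in IG2, 755 in cells without a state and 1422 in Multi-Lin-1. These granulocytic markers were thus present throughout proNeu-1 and IG2 and low in many other cells. All 5 were detected in 12 of 12 proNeu-1, 31 of 31 IG2, 10 of 27 unnamed and 10 of 26 Multi-Lin-1 cells. Erythroid markers summed to a median TPM of 7.08, 1.25, 809 and 440.4 in the same order, with 8 of 9 seen in some cell and Hbb-b1 in none. Mast cell and basophil markers had 453, 834, 2781 and 992, and their members differed in direction. In mean log2(TPM + 1), Hdc had 7.17, 7.01, 3.48 and 3.42 and Mcpt8 4.43, 4.03, 4.81 and 1.28. Gata2 had 1.68, 1.99, 6.88 and 7.23, and Cpa3 0.44, 4.60, 6.05 and 6.82. Ms4a2 had 0.18, 0.65, 5.16 and 3.37, and Fcer1a 0.00, 0.10, 1.35 and 0.00. Macrophage and monocyte markers summed to a median TPM of 2685, 21.5, 0 and 0, mostly from Ly6c2. B cell markers Cd79a, Ebf1 and Pax5 and T cell and NK cell markers Cd3e, Cd3g and Ncr1 stayed below a TPM of 1 throughout the 96 cells. Of the other markers of these lists, Cd79b was detected in 25 of 96 cells, with a highest sum of the B cell list of 1773 TPM in cells without a state, and Cd3d in 8 of 96 (8.33%). The part of genes detected and of these other programmes in the results below was not tested.

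**Figure D1:**
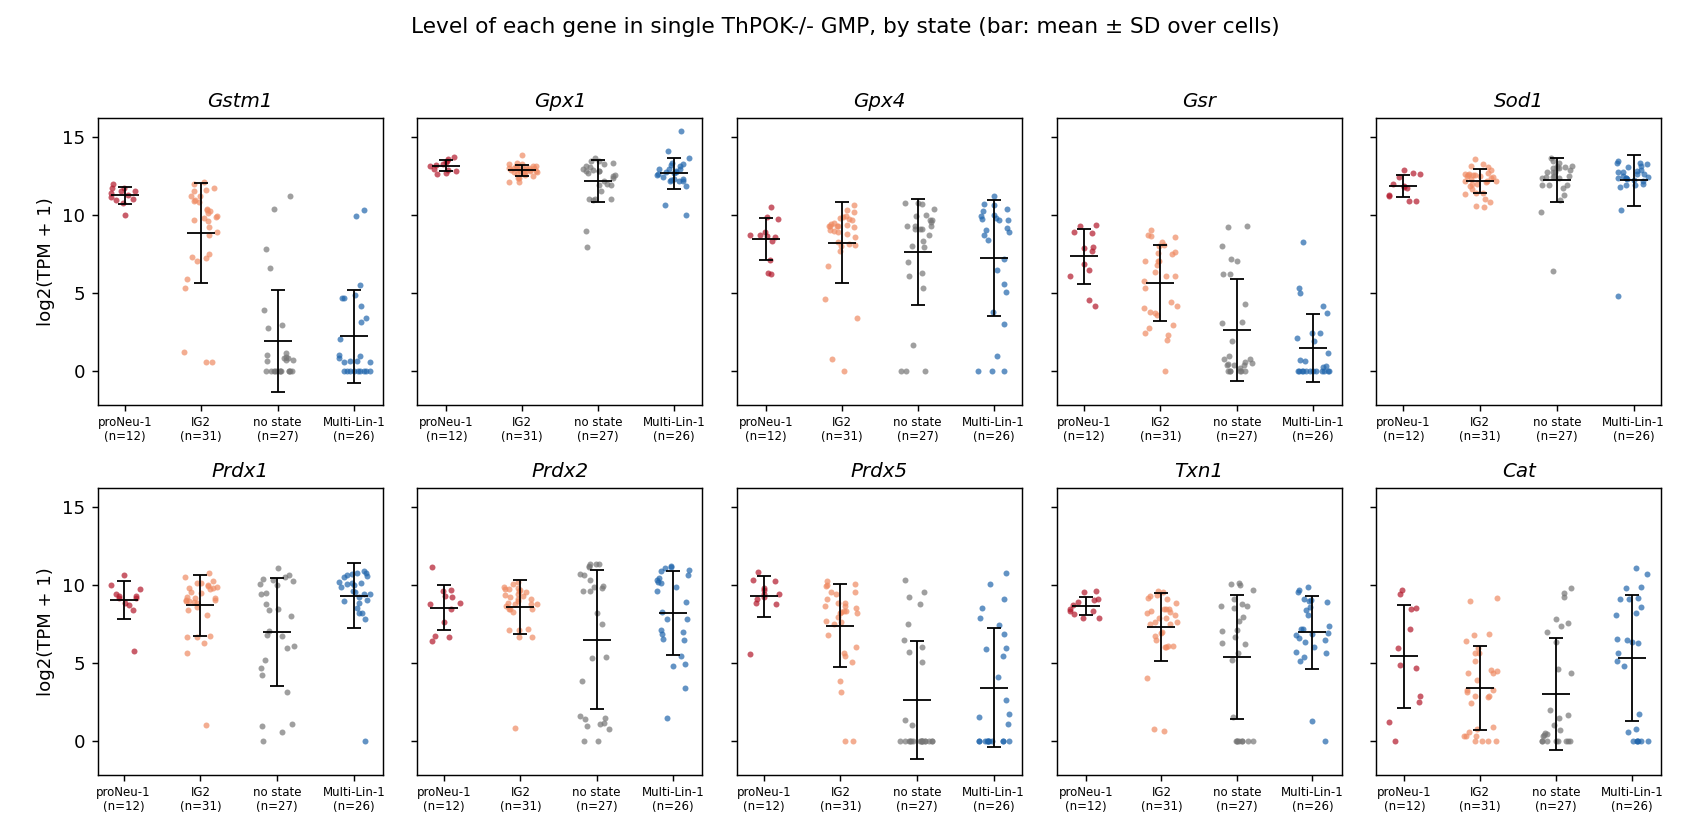
Level of each of the 10 genes in single cells, as log2(TPM + 1), by state (proNeu-1, IG2, no state, Multi-Lin-1). Points are cells and bars are the mean and SD over cells. Gstm1, Gsr and Prdx5 separate proNeu-1 and most IG2 cells from the rest, while Gpx1 and Sod1 are high in all states.

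Values are given in TPM for levels and as differences of mean log2(TPM + 1) between states. States have no replicates, so differences carry no p, and SD is over cells. A difference of 1 log2 unit or more is called past the fold, and its background is the share of the 8044 genes detected in at least 10% of cells that are past it in the same direction. In proNeu-1 against Multi-Lin-1, 5 of the 10 genes were higher past the fold (background 35.2%) and 0 lower (5%). In IG2 against Multi-Lin-1, 3 were higher (31.1%) and 1 lower (2.54%). In proNeu-1 against IG2, 5 were higher (13.6%) and 0 lower (10.2%). In cells without a state against Multi-Lin-1, 1 was higher (5.21%) and 4 were lower (12%). The median differences of the 10 genes in these comparisons were 0.85, 0.35, 0.86 and -0.66, against 0.52, 0.53, 0.02 and -0.13 over all 8044 genes. The comparisons with Multi-Lin-1 share its 26 cells. Against Multi-Lin-1, 3 of 10 higher genes in IG2 is near the background, and the sizes for single genes are given next.

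**Figure D2:**
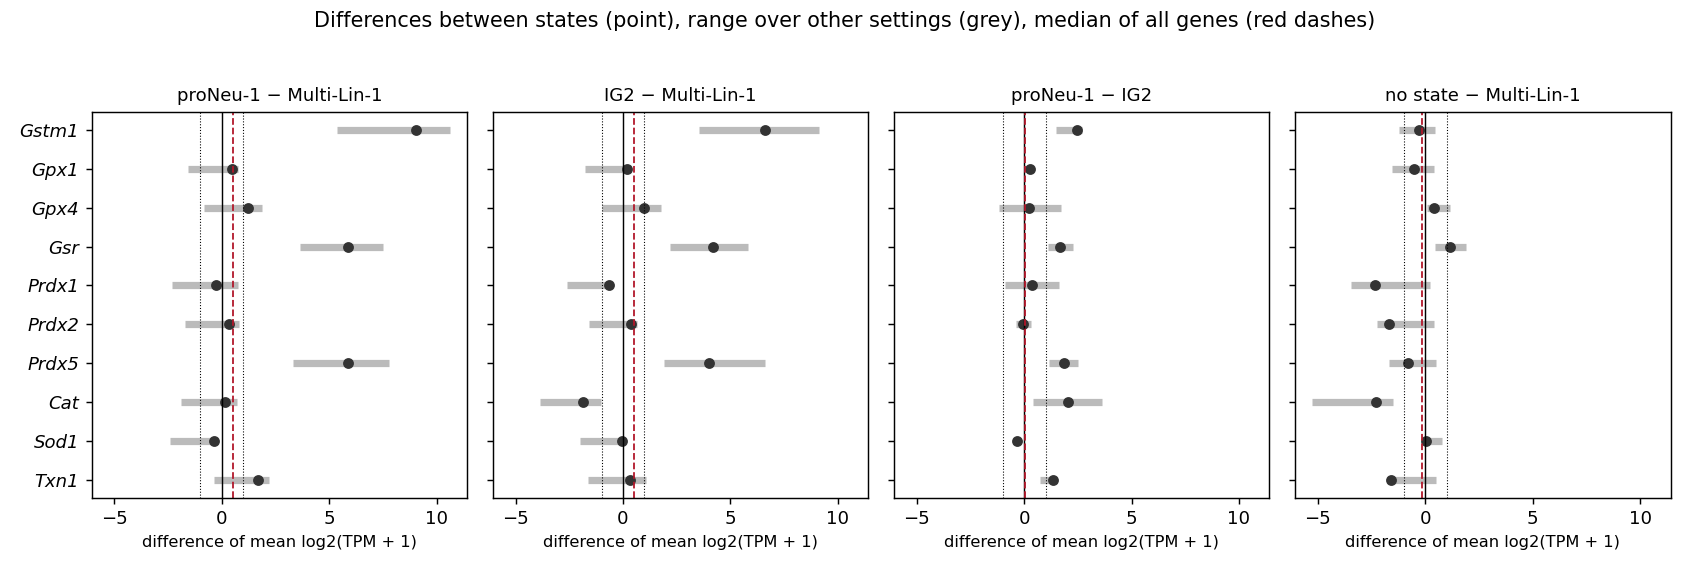
Difference of mean log2(TPM + 1) for each gene in 4 comparisons of states. Black points are the differences, grey bars span the values under 10 other settings, dotted lines mark 1 log2 unit and red dashes the median of all 8044 genes. For Gstm1, Gsr and Prdx5 the grey bars stay right of 1 in the comparisons of proNeu-1 and IG2 with Multi-Lin-1 and with each other.

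Sod1, the cytosolic copper-zinc superoxide dismutase that produces hydrogen peroxide (ENSMUSG00000022982.10, chromosome 16, 90220754 to 90226329 on GRCm38, plus strand), was detected in 96 of 96 cells. Its TPM had a lowest, median and highest value of 1897, 3619 and 7468 in proNeu-1 and 1463, 5188 and 12360.1 in IG2. In cells without a state these were 84.8, 5953 and 12949, and in Multi-Lin-1 26.9, 5782 and 11279. The states overlapped throughout, and the mean log2 level over all cells, 12.18 ± 1.23 (SD, n = 96), ranked 12 among the 8044 genes. The 4 differences ran from -0.36 in proNeu-1 against Multi-Lin-1 to 0.04 in cells without a state against Multi-Lin-1. Sod1 also had the most negative rank correlation of the 10 with the summed primary granule markers, at rho -0.30 over 96 cells and -0.28 after regression on genes detected.

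Cat encodes catalase, which splits hydrogen peroxide in peroxisomes without a cofactor to be recycled (ENSMUSG00000027187.10, chromosome 2, 103453849 to 103485160, minus strand). Its lowest, median and highest TPM were 0, 44.6 and 825 in proNeu-1 and 0, 8.68 and 579.5 in IG2. They were 0, 1.06 and 908 in cells without a state and 0, 77.9 and 2231 in Multi-Lin-1. Cat was thus listed at 0 in some cells of each state and reached a TPM of 579.5 or more in others, so the ranges of all states overlapped. It was detected in 11 of 12 proNeu-1, 21 of 31 IG2, 14 of 27 unnamed and 18 of 26 Multi-Lin-1 cells. With a threshold of 30 TPM the numbers of cells were 6, 9, 8 and 16 in the same order. The mean was lower by 1.88 log2 units in IG2 (3.44 ± 2.70) than in Multi-Lin-1 (5.32 ± 4.03), a difference that 0.385% of all genes lay below. Cells without a state (3.05 ± 3.59) gave a difference from Multi-Lin-1 of -2.27, with 0.932% of genes below. Both were past 1 log2 unit under all 10 other settings, from -3.85 to -1.01 and from -5.26 to -1.51. In proNeu-1 the mean was 5.46 ± 3.30, which differed from Multi-Lin-1 by 0.14 and from IG2 by 2.02, but by 0.40 from IG2 in cells numbered 079.

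Gpx1, the main cytosolic glutathione peroxidase (ENSMUSG00000063856.7, chromosome 9, 108338903 to 108340343, plus strand), was detected in 96 of 96 cells and ranked 5 of 8044 genes by mean log2 level, 12.66 ± 0.96. Its lowest, median and highest TPM were 6439, 9342 and 13511 in proNeu-1 and 4431, 7679.6 and 14708 in IG2. In cells without a state they were 251, 6108 and 12863, and in Multi-Lin-1 1038, 6801 and 42693. The medians lie close together. The spread over cells was narrower in proNeu-1 (SD 0.36 log2 units) and IG2 (0.35) than in cells without a state (1.34) and Multi-Lin-1 (1.0). The wide spread lay in cells numbered 079, with SDs of 1.53 without a state and 1.26 in Multi-Lin-1, against 0.52 and 0.41 in 078. In cells with 3000 or more genes the SD was 0.37 in proNeu-1, 0.77 without a state and 0.42 in Multi-Lin-1. Differences were 0.47 in proNeu-1, 0.20 in IG2 and -0.51 in cells without a state, each against Multi-Lin-1. The last was 0.42 in cells numbered 078 and -1.57 in cells numbered 079. Gpx1 and Sod1 together made up a median of 79.3% of the TPM summed over the 10 genes, 70.3% in proNeu-1, 79.6% in IG2, 83.1% in cells without a state and 77.8% in Multi-Lin-1. That sum was a median of 1.99% of all TPM in proNeu-1, 1.70% in IG2, 1.55% in cells without a state and 1.66% in Multi-Lin-1.

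Gpx4 reduces lipid peroxides in membranes and restrains ferroptosis (ENSMUSG00000075706.10, chromosome 10, 80047166 to 80056439, plus strand). Its median TPM was 405 in proNeu-1, 594 in IG2, 554 in cells without a state and 502 in Multi-Lin-1, with a range of 75.2 to 1447 in proNeu-1 and of 0 to 1619, 0 to 1775 and 0 to 2392 in the others. The ranges overlapped, and proNeu-1 differed in having no cell at 0. Mean log2 levels were 8.48 ± 1.33, 8.23 ± 2.58, 7.64 ± 3.38 and 7.25 ± 3.72 in that order. The difference of 1.23 between proNeu-1 and Multi-Lin-1 turned in sign under 5 of 10 other settings, among them the mean over cells with the gene detected (-0.05). Gpx4 therefore has no stable direction between these states.

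Prdx1, a cytosolic peroxiredoxin (ENSMUSG00000028691.12, chromosome 4, 116685544 to 116700822, plus strand), had a lowest, median and highest TPM of 53.9, 615 and 1621 in proNeu-1 and 1.05, 586 and 1764 in IG2. It had 0, 263 and 2196 in cells without a state and 0, 878 and 1935 in Multi-Lin-1. The proNeu-1 cells averaged 9.06 ± 1.20 log2 units and the IG2 cells 8.71 ± 1.93, while Multi-Lin-1 cells averaged 9.34 ± 2.10, differences of -0.28 and -0.63. With regression on genes detected these were -1.75 and -1.86, and less the cell median -2.32 and -2.60. The difference between proNeu-1 and Multi-Lin-1 was -1.53 in cells numbered 078 and 0.76 in cells numbered 079. Cells without a state averaged 6.99 ± 3.45, lower by 2.35 than Multi-Lin-1. Prdx2, a second cytosolic peroxiredoxin that is abundant in red cells (ENSMUSG00000005161.15, chromosome 8, 84969587 to 84974834, plus strand), averaged 8.56 ± 1.44 in proNeu-1, 8.60 ± 1.74 in IG2, 6.53 ± 4.44 in cells without a state and 8.23 ± 2.66 in Multi-Lin-1. Its median TPM was 455, 519, 295 and 404 in that order, and in cells without a state it ran from 0 to 2677.

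Txn1, the cytosolic thioredoxin that resets peroxiredoxins (ENSMUSG00000028367.5, chromosome 4, 57943373 to 57956411, minus strand), had a lowest, median and highest TPM of 235, 393 and 781 in proNeu-1 and 0.590, 234 and 792 in IG2. It had 0, 103 and 1121 in cells without a state and 0, 133 and 932 in Multi-Lin-1. All 12 proNeu-1 cells lay above the Multi-Lin-1 median, while the ranges overlapped. The mean log2 level was 8.68 ± 0.59 in proNeu-1, 7.31 ± 2.17 in IG2, 5.38 ± 3.97 in cells without a state and 6.98 ± 2.35 in Multi-Lin-1. The difference between proNeu-1 and Multi-Lin-1 was 1.70, but 0.21 in cells with 3000 or more genes detected. For cells without a state against Multi-Lin-1, the lower means of Prdx1 (-2.35), Prdx2 (-1.70) and Txn1 (-1.60) turned to 0.22, 0.39 and 0.52 in cells with 3000 or more genes, of which there were 7 and 10. After regression on genes detected over all cells they were -2.05, -1.35 and -1.20.

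Prdx5, a peroxiredoxin of mitochondria, peroxisomes and cytosol (ENSMUSG00000024953.17, chromosome 19, 6906697 to 6910106, minus strand), was detected in 12 of 12 proNeu-1, 29 of 31 IG2, 11 of 27 unnamed and 15 of 26 Multi-Lin-1 cells. Its lowest, median and highest TPM were 48.3, 702 and 1828 in proNeu-1 and 0, 314 and 1231 in IG2. They were 0, 0 and 1266 in cells without a state and 0, 2.20 and 1766 in Multi-Lin-1. The proNeu-1 and IG2 cells were mostly high and other cells mostly near 0, but some cells outside these states reached the same level. The means were 9.29 ± 1.31, 7.42 ± 2.66, 2.64 ± 3.77 and 3.44 ± 3.81 log2 units, and the differences 5.85 for proNeu-1 and 3.98 for IG2 against Multi-Lin-1.

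Gsr, glutathione reductase (ENSMUSG00000031584.16, chromosome 8, 33652523 to 33698163, plus strand), had a lowest, median and highest TPM of 16.7, 223 and 663 in proNeu-1 and 0, 69.3 and 537 in IG2. It had 0, 0.700 and 635 in cells without a state and 0, 0.250 and 303 in Multi-Lin-1. Again a minority of cells outside proNeu-1 and IG2 held high levels, with a TPM of 30 or more in 7 of 27 unnamed and 3 of 26 Multi-Lin-1 cells. Means were 7.35 ± 1.75, 5.68 ± 2.43, 2.64 ± 3.24 and 1.49 ± 2.18 log2 units. The differences against Multi-Lin-1 were 5.87 for proNeu-1, 4.20 for IG2 and 1.15 for cells without a state, the last within 1 unit under 3 of 10 other settings.

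Gstm1, a cytosolic mu-class glutathione transferase (ENSMUSG00000058135.12, chromosome 3, 108012255 to 108017973, minus strand), had the widest difference of the 10. Its lowest, median and highest TPM were 1037, 2650.5 and 4099 in proNeu-1 and 0.510, 936 and 4415 in IG2. They were 0, 0.610 and 2344 in cells without a state and 0, 0.690 and 1263 in Multi-Lin-1. The proNeu-1 cells formed a tight high group (11.28 ± 0.54 log2 units), whereas IG2 spread from near 0 to the highest value of all (8.84 ± 3.19). Cells without a state averaged 1.95 ± 3.25 and Multi-Lin-1 cells 2.24 ± 2.97, a difference of -0.29. Gstm1 was higher by 9.03 in proNeu-1 and by 6.60 in IG2 than in Multi-Lin-1, with 99.9% of all genes below it in each comparison. It was detected in 12 of 12 proNeu-1, 29 of 31 IG2, 9 of 27 unnamed and 11 of 26 Multi-Lin-1 cells. Mu-class transferase genes are close copies of each other and may share reads.

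For Gstm1, Gsr and Prdx5, the differences of proNeu-1 and IG2 from Multi-Lin-1 and from each other were past 1 log2 unit under all 10 other settings. In cells with 3000 or more genes (11 proNeu-1, 27 IG2 and 10 Multi-Lin-1 cells), proNeu-1 was higher than Multi-Lin-1 by 9.83 for Gstm1, 6.55 for Gsr and 6.77 for Prdx5. Over cells in which the gene was detected, it was higher by 6.37, 3.69 and 3.33, so both the share of cells and the level within those cells were higher. Between proNeu-1 and IG2 the means of Gstm1, Gsr and Prdx5 were higher in proNeu-1 by 2.44, 1.67 and 1.87. The number of the 10 genes detected had a median of 10 in proNeu-1 (range 9 to 10), 10 in IG2 (7 to 10), 7 in cells without a state (3 to 9) and 8 in Multi-Lin-1 (4 to 10). All 10 were detected in 11 of 12 proNeu-1 cells (91.7%, 95% Clopper-Pearson interval 61.5 to 99.8%) and 18 of 31 IG2 cells (58.1%, 39.1 to 75.5%). They were all detected in 0 of 27 cells without a state (interval up to 12.8%) and 1 of 26 Multi-Lin-1 cells (3.85%, 0.0973 to 19.6%).

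**Figure D3:**
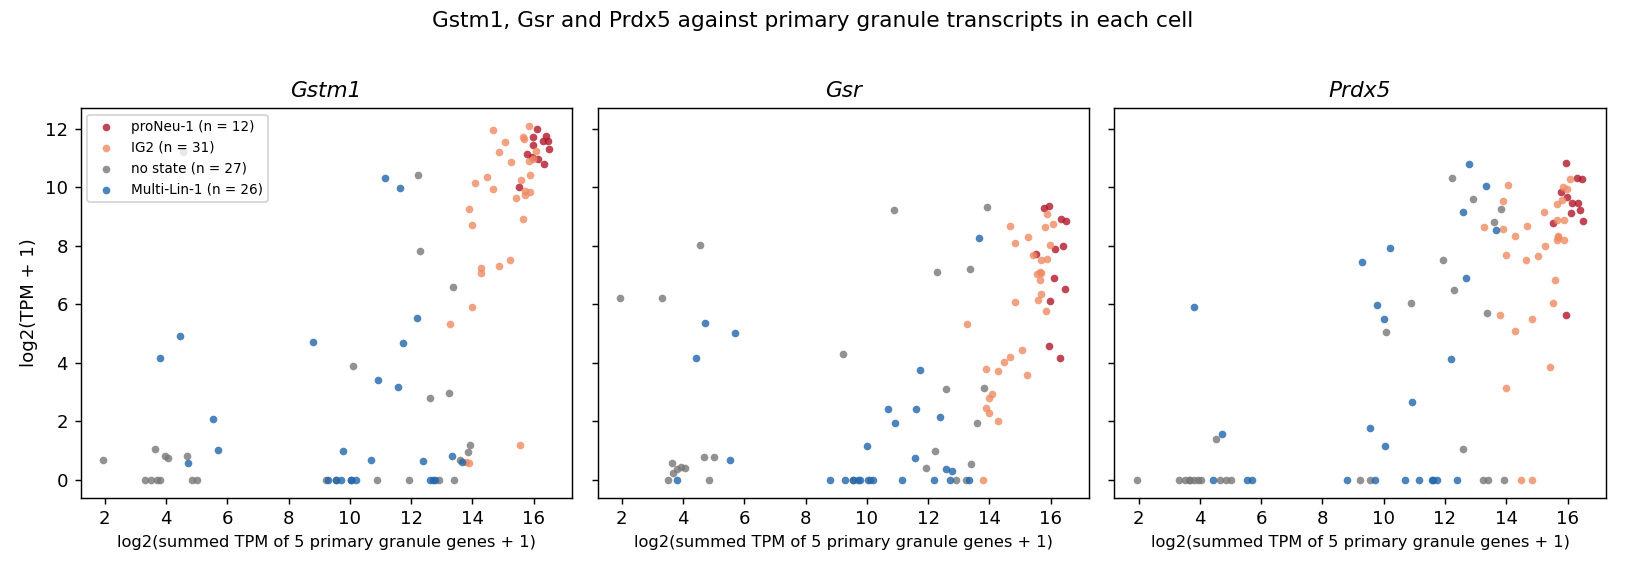
Level of Gstm1, Gsr and Prdx5, as log2(TPM + 1), against log2 of the summed TPM of 5 primary granule genes plus 1 in each of 96 cells, by state. Across cells rho was 0.75 for Gstm1, 0.64 for Gsr and 0.72 for Prdx5. The proNeu-1 cells sit at the upper right, and some cells without a state have high Gsr at low granule levels.

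Across the 96 cells, which belong to 1 sample and differ in genes detected, Gstm1, Prdx5 and Gsr went with the summed primary granule markers at rho 0.75, 0.72 and 0.64. After regression on genes detected these were 0.47, 0.63 and 0.40. Within IG2 they were 0.58, 0.37 and 0.75 (n = 31), and within Multi-Lin-1 -0.11, 0.39 and 0.02 (n = 26). Within proNeu-1 they were 0.33, 0.12 and -0.01 (n = 12), and within cells without a state 0.30, 0.56 and 0.19 (n = 27). The rho of Gsr was thus highest within IG2 and near 0 within proNeu-1 and Multi-Lin-1, while that of Prdx5 was positive within each of the 4. With genes detected, rho was 0.53 for Gstm1, 0.50 for Gsr, 0.46 for Txn1 and 0.42 for Prdx5, and between -0.04 and 0.26 for the other 6.

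Among the 45 pairs of the 10 genes, the median rho was 0.07, which is also the median over all pairs of genes detected in 50% of cells. A rho of 0.3 or more was found in 3 pairs, against 3.26% of all 2575315 such pairs. They were Gstm1 with Gsr (0.64), Gstm1 with Prdx5 (0.49) and Gsr with Prdx5 (0.40). After regression on genes detected 2 pairs remained at 0.3 or more, against 0.733% of all pairs, with Gstm1 and Gsr at 0.55, Gstm1 and Prdx5 at 0.35 and Gsr and Prdx5 at 0.29. Within IG2 the 3 pairs gave 0.59, 0.35 and 0.25. Within proNeu-1 they gave -0.07, 0.36 and 0.17 (n = 12), and within Multi-Lin-1 0.19, -0.53 and -0.31. Within cells without a state they gave 0.35, 0.36 and 0.23. Gstm1 and Gsr thus varied together inside IG2, while the pairs with Prdx5 turned in sign inside Multi-Lin-1. Among the 21 pairs of the remaining 7 genes, 0 reached a rho of 0.3, and the highest was 0.26, between Prdx1 and Cat (0.42 in cells numbered 079). By Pearson's r, 5 of these pairs were at 0.3 or more, with the highest at 0.41 for Gpx4 and Sod1 and 0.38 for Txn1 with Prdx1 and with Prdx2.

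**Figure D4:**
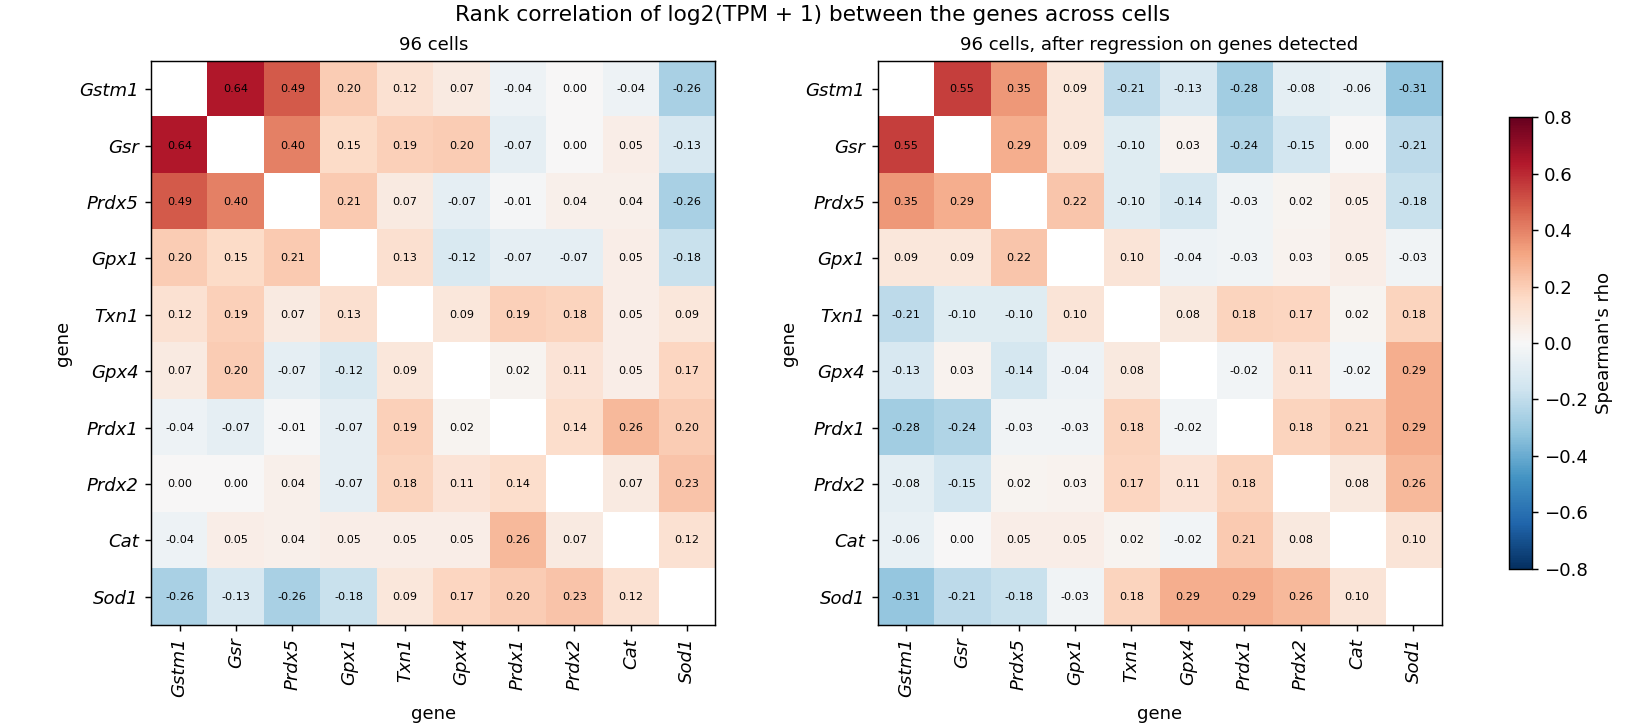
Spearman's rho of log2(TPM + 1) between each pair of the 10 genes over 96 cells, as measured (left) and after regression on genes detected (right). The block of Gstm1, Gsr and Prdx5 holds the 3 highest values as measured, 0.64, 0.49 and 0.40, and Sod1 is negative against each of these genes.

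Of all genes detected in at least 10% of cells, those most like each of the 10 by rho over 96 cells with the same sign in both label numbers fell into 2 sorts. Gstm1 was followed by Elane (neutrophil elastase, 0.77), Mpo (myeloperoxidase, 0.72) and B4galt6, a glycolipid galactosyltransferase (0.71). Prdx5 was followed by Mpo (0.71), Ctsg (cathepsin G, 0.67) and Prtn3 (proteinase 3, 0.61), and Gsr by Gstm1 (0.64), Ms4a3 (0.63) and B4galt6 (0.63). Within IG2, B4galt6 gave 0.71 with Gsr and 0.56 with Gstm1, and within Multi-Lin-1 -0.03 and 0.38. With Gstm1, Elane and Mpo gave 0.66 and 0.30 within IG2 and 0.06 and 0.00 within Multi-Lin-1. The others had weaker likeness: the highest rho was 0.51 for Txn1 with Cct7, a chaperonin subunit, 0.47 for Prdx2 with Rp9 and 0.46 for Sod1 with Lsp1, a leukocyte actin-binding protein. It was 0.43 for Prdx1 with Parl, 0.42 for Gpx4 with Rpa1, 0.41 for Gpx1 with Hsdl2 and 0.38 for Cat with Tpm1. The number of genes at a rho of 0.3 or more was 709 for Gstm1, 541 for Gsr, 474 for Prdx5 and 287 for Txn1, and from 21 to 81 for the other 6.

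Of 74 other genes of the pathway in 9 lists, 51 were detected in at least 10% of cells. Of these, 29 were higher past the fold and 4 lower in proNeu-1 against Multi-Lin-1 (background 35.2% and 5%), and 26 were higher and 1 lower in IG2 (31.1% and 2.54%). After regression on genes detected the counts were 15 and 7 in proNeu-1, against 12.6% and 12.7% of all genes, and 6 and 2 in IG2, against 6.91% and 5.56%. In proNeu-1 against IG2, 14 were higher and 5 lower (13.6% and 10.2%), and in cells without a state against Multi-Lin-1 6 were higher and 4 lower (5.21% and 12%). The median difference of the 51 was 1.18 in proNeu-1 and 1.04 in IG2 against Multi-Lin-1, above the 0.52 and 0.53 of all genes. After regression on genes detected these medians were 0.37 and 0.25, against -0.07 and 0.01 of all genes.

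**Figure D5:**
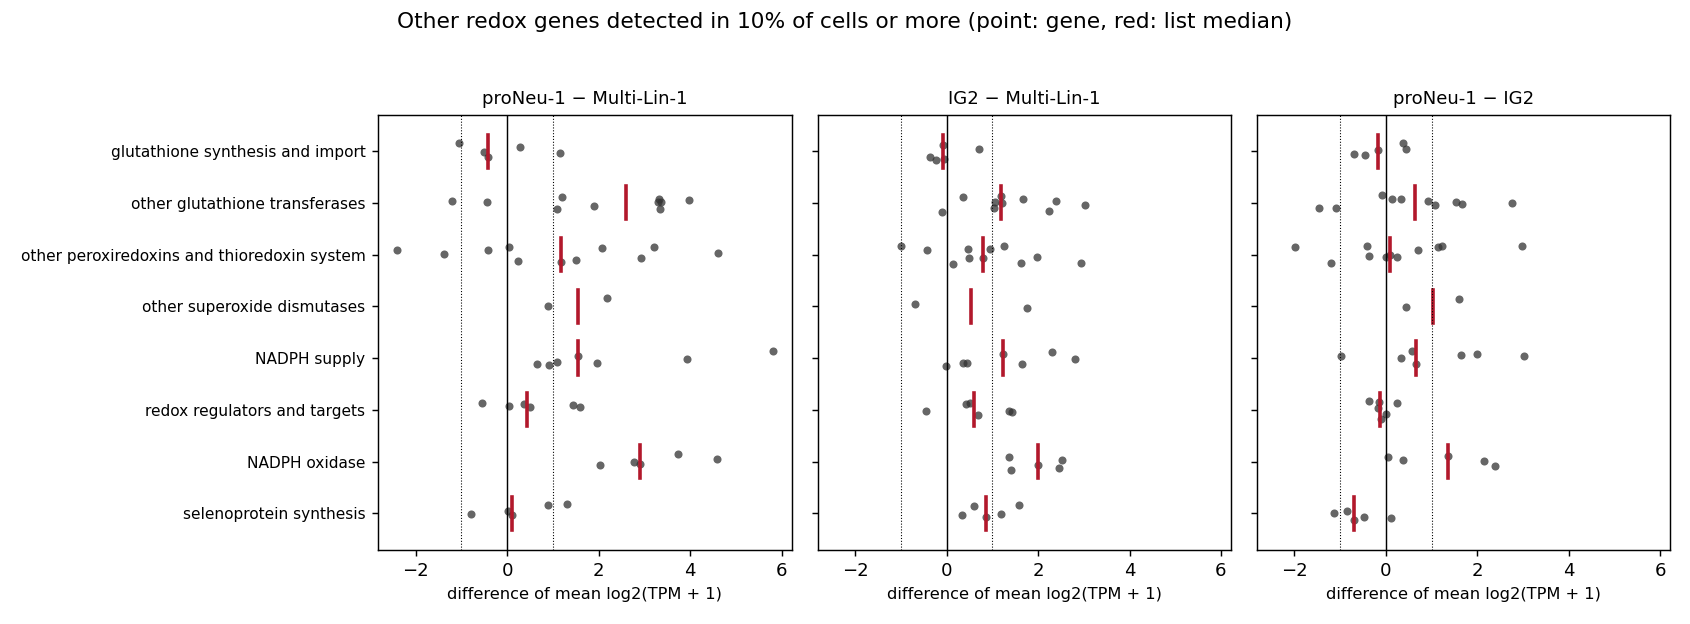
Difference of mean log2(TPM + 1) in 3 comparisons of states for 51 other redox genes detected in at least 10% of cells, by list. Points are genes, red marks are list medians and dotted lines mark 1 log2 unit. All 5 NADPH oxidase genes lie right of 1 in proNeu-1 and in IG2 against Multi-Lin-1, while glutathione synthesis and selenoprotein synthesis have medians of -0.41 and 0.10 in proNeu-1 against Multi-Lin-1.

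Of 10 other glutathione transferases detected, 8 were higher past the fold and 1 lower in proNeu-1 than in Multi-Lin-1 (background 35.2% and 5%). In IG2, 8 were higher and 0 lower (31.1% and 2.54%). The gene lower in proNeu-1 was Gstm5, of the mu class, at -1.20. Gstp1, the pi-class transferase, averaged 8.95 ± 1.06 in proNeu-1, 8.61 ± 1.97 in IG2, 6.96 ± 3.96 in cells without a state and 5.59 ± 3.76 in Multi-Lin-1. The microsomal Mgst1 averaged 4.23 ± 3.94, 3.16 ± 3.98, 1.64 ± 3.03 and 0.93 ± 2.50 in that order. Mgst2 was detected in 9 of 12 proNeu-1, 9 of 31 IG2, 0 of 27 unnamed and 1 of 26 Multi-Lin-1 cells. Gstm4, a mu-class gene like Gstm1, was detected in 7 of 12 proNeu-1 and 8 of 31 IG2 cells, and was listed at 0 in every Multi-Lin-1 cell. Its close similarity to Gstm1 leaves its reads uncertain. With regression on genes detected, differences from Multi-Lin-1 in proNeu-1 and IG2 were 1.19 and 1.22 for Gstp1 and 1.95 and 1.11 for Mgst1. They were 2.66 and 0.12 for Mgst2 and 1.95 and 0.52 for Gstm4. Gstm5 and Gstz1 were lower past the fold in proNeu-1 after regression, at -1.55 and -1.73.

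The phagocyte NADPH oxidase makes superoxide. Its 5 detected genes were all higher past the fold in proNeu-1 and in IG2 than in Multi-Lin-1 (background 35.2% and 31.1%). Ncf1, the p47 subunit, averaged 4.94 ± 3.13 in proNeu-1, 2.80 ± 3.28 in IG2, 0.33 ± 1.20 in cells without a state and 0.35 ± 1.30 in Multi-Lin-1. Ncf4, the p40 subunit, averaged 5.09 ± 3.90, 2.70 ± 3.47, 0.39 ± 1.59 and 1.34 ± 2.62. The membrane subunit Cyba had 8.32 ± 2.25, 6.96 ± 2.53, 6.35 ± 3.91 and 5.54 ± 3.27, and the GTPase Rac2 8.61 ± 1.64, 8.23 ± 1.59, 6.96 ± 3.43 and 5.70 ± 3.37. Regression on genes detected left Ncf1 higher by 3.24 in proNeu-1 and by 1.33 in IG2, and Rac2 by 1.59 and 1.43. Ncf4 and Cyba were past the fold in proNeu-1 (1.68 and 1.29) but not in IG2 (-0.36 and 0.18).

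NADPH is consumed by glutathione reductase and by the oxidase. Its list holds enzymes that make it and also Tkt and Taldo1, pentose phosphate enzymes that do not make it themselves. Of 7 genes of this list detected, 5 were higher past the fold in proNeu-1 than in Multi-Lin-1 and 0 lower (background 35.2% and 5%). Idh1, cytosolic isocitrate dehydrogenase, averaged 8.29 ± 1.18 in proNeu-1, 5.28 ± 3.31 in IG2, 3.08 ± 4.15 in cells without a state and 2.49 ± 3.10 in Multi-Lin-1. Pgd, of the pentose phosphate pathway, averaged 5.93 ± 2.13, 4.30 ± 3.06, 2.24 ± 2.43 and 2.0 ± 2.26. Both were detected in 12 of 12 proNeu-1 cells and remained past the fold there after regression, at 3.83 for Idh1 and 1.65 for Pgd. The other 3 were within the fold after regression, with 0.70 for Tkt, 0.37 for G6pdx and 0.14 for Taldo1. Tkt (transketolase) averaged 6.39 ± 2.33, 4.41 ± 3.31, 2.95 ± 3.49 and 4.43 ± 3.55, so that IG2 did not differ from Multi-Lin-1 past the fold (-0.02). The mitochondrial Idh2 averaged 6.79 ± 2.85 in proNeu-1, 7.78 ± 2.65 in IG2, 3.43 ± 3.35 in cells without a state and 6.13 ± 3.54 in Multi-Lin-1, and its difference between proNeu-1 and Multi-Lin-1 was -1.71 after regression.

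Of 11 other peroxiredoxin and thioredoxin system genes detected, 6 were higher past the fold and 2 lower in proNeu-1 than in Multi-Lin-1 (background 35.2% and 5%). In IG2, 4 were higher and 1 lower (31.1% and 2.54%). Glrx (glutaredoxin, which removes glutathione from proteins) averaged 7.19 ± 2.62 in proNeu-1, 4.21 ± 3.31 in IG2, 1.70 ± 2.89 in cells without a state and 2.58 ± 3.91 in Multi-Lin-1. Glrx3 averaged 6.67 ± 1.86, 6.67 ± 1.94, 4.53 ± 4.16 and 3.75 ± 3.86, and the mitochondrial Prdx3 6.51 ± 2.59, 5.27 ± 3.46, 3.54 ± 3.98 and 3.30 ± 3.75. Txnip, an inhibitor of thioredoxin, went the other way, with 1.06 ± 1.96 in proNeu-1, 3.04 ± 2.83 in IG2, 4.22 ± 4.17 in cells without a state and 3.46 ± 3.89 in Multi-Lin-1. The difference of Txnip between proNeu-1 and Multi-Lin-1 was -2.41, and -1.62 after regression. With regression, differences from Multi-Lin-1 in proNeu-1 and IG2 were 2.21 and -0.36 for Glrx, 0.83 and 1.19 for Glrx3 and 1.37 and 0.44 for Prdx3. Prdx4 and Glrx5 were lower past the fold in proNeu-1 after regression, at -1.23 and -1.06.

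In the remaining lists fewer genes were past the fold. The background for their counts is 35.2% higher and 5% lower in proNeu-1 and 31.1% and 2.54% in IG2. Of Sod2 and Ccs, Sod2 was higher past the fold in proNeu-1 and in IG2 than in Multi-Lin-1 and Ccs in neither. Sod2, the mitochondrial dismutase, averaged 6.26 ± 1.94 in proNeu-1, 5.82 ± 2.48 in IG2, 4.36 ± 3.09 in cells without a state and 4.07 ± 3.14 in Multi-Lin-1. Ccs, the copper chaperone of Sod1, averaged 3.68 ± 3.97, 2.08 ± 2.95, 1.28 ± 2.68 and 2.77 ± 3.86, unlike the even level of Sod1 itself. The differences of Sod2 after regression were 1.07 and 0.82. Of 5 genes of glutathione synthesis and import, 1 was higher (Gclm, by 1.15) and 1 lower (Gss, a difference of -1.05) in proNeu-1 than in Multi-Lin-1, and 0 were past the fold in IG2. Of 6 redox regulators and their targets detected, 2 were higher in proNeu-1 and in IG2 and 0 lower, which is near the background. The 2 were Nfe2l2, which encodes the activator NRF2 (1.60 and 1.36), and Sesn1 (1.45 and 1.44). Of 5 selenoprotein synthesis genes, which serve Gpx1 and Gpx4, 1 was higher in proNeu-1, Sephs2 by 1.30, and 2 in IG2, Sephs2 by 1.19 and Eefsec by 1.59. With regression on genes detected, these differences in proNeu-1 and IG2 were 0.84 and 0.73 for Nfe2l2, 0.52 and 0.66 for Sesn1 and 0.45 and 0.49 for Sephs2. They were 0.68 for Eefsec in IG2, and 0.76 for Gclm and -0.97 for Gss in proNeu-1, so that each of these was within the fold. Secisbp2 was detected in 0 of 12 proNeu-1 and 8 of 31 IG2 cells. None of 3 other glutathione peroxidases reached 10% of cells.

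Splicing of these genes was measured as PSI (percent spliced in), the fraction from 0 to 1 of competing junction reads that used a junction. The splicing table holds 66 events in 9 of the 10 genes, with none for Sod1, and 61 have values in at least 10 cells. A mean PSI between 0.1 and 0.9 was found in 3 of these, all in Gsr with means of 0.519, 0.857 and 0.131, against 15.9% of all 34937 such events of the table. It was found in 0 of the 46 events with values in at least 20 cells, against 11.1% of all 19295. For the single intron of Gpx1, the spliced junction had a PSI of 0.983 ± 0.0337 (n = 12) in proNeu-1, 0.981 ± 0.0377 (n = 31) in IG2, 0.939 ± 0.139 (n = 26) in cells without a state and 0.961 ± 0.0876 (n = 26) in Multi-Lin-1. These lie within the SD over cells. For Prdx2, an alternative acceptor of the second exon had a PSI of 0.0570 ± 0.146 (n = 12), 0.167 ± 0.360 (n = 27), 0.00891 ± 0.0197 (n = 14) and 0.0545 ± 0.128 (n = 16) in that order, again with overlapping spread. No junction read counts come with these fractions, so the precision of a single cell's value is unknown.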

How the data were processed

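RNA of 96 single ThPOK-/- GMP was measured on a Fluidigm C1 chip. Expression was deposited by the authors as log2 values, named RSEM TPM, for 23955 genes. 2 to the power of each value, less 1, summed to 1e+06 per cell, so values were read as log2(TPM + 1), with a pseudocount of 1. Splicing was deposited by the authors as fractions (PSI). Per the submitters' processing notes, mm9, mm10, Bowtie2, RSEM and STAR were used. Versions, and which build served which table, are not given in the sources used here, but 43 of 48 junctions of these genes that span an intron end at GENCODE M21 exon edges on GRCm38. Coordinates of genes come from that annotation. In the deposited tables, 1142 columns and 511 state entries match no label and were not used, nor was a column of PSI differences.

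SciPy 1.17.1, pandas 2.3.3, NumPy 2.4.6 and matplotlib 3.10.9 were run under Python 3.11.15. All 96 cells were kept and no doublet caller was run. A gene was detected at a TPM of 1. States have no replicates and may rest on the same values, so no test was made between them, and rho over cells is a description without p. The genes and lists were chosen with earlier results of these data known. Named genes are the 10, up to 4 genes per list with the largest difference, a few others given with values after regression, and the 3 genes most alike for each of the 10. Calculations were checked on simulated data. Some genes of the lists are not reported here. Depth is unknown, since TPM keeps none. Reads are PCR copies without molecular identifiers, and how reads of near-identical copies were shared is not given in the sources used here. Clopper-Pearson intervals at the 95% level cover the counting of cells only. The knocked-out gene, Zbtb7b, was detected in 2 of 96 cells. Cell names carry a number, 078 or 079 (48 cells each), of unstated meaning. Alternatives were each number alone, cells with 3000 or more genes, a pseudocount of 10, medians, TPM without the primary granule markers, values less the cell's median over genes detected in 50% of cells, regression on genes detected, a fold of 2 log2 units, no filter on low values, a detection TPM of 30, Pearson's r, PSI in at least 20 cells and, added after seeing the data, the mean over detected cells and the label number as a term in the fit.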

Additional observations from a re-analysis of the deposited data

How the results depend on the processing

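The 40 differences of the 10 genes between states have 400 values under 10 other settings, of which 375 moved by less than the SD over cells, 14 by more, and 11, of differences past the fold, turned in sign. With differences within the fold included, 51 turned in sign. Subtracting each cell's median moved the median of all genes to -1.52, -1.43, -0.06 and 0.63 in proNeu-1 against Multi-Lin-1, IG2 against Multi-Lin-1, proNeu-1 against IG2 and no state against Multi-Lin-1, so counts under it are relative to that shift. In proNeu-1 against Multi-Lin-1, higher genes numbered 3 in place of 5 in cells with 3000 or more genes, less the cell median, after regression on genes detected and at a fold of 2 log2 units. Lower genes numbered 1 in cells numbered 078 and over detected cells only (an alternative chosen after seeing the data), 2 after regression and 5 less the cell median, in place of 0. In IG2 against Multi-Lin-1, lower genes numbered 2 in cells with 3000 or more genes and over detected cells, 4 after regression, 6 less the cell median and 0 at a fold of 2, in place of 1. In proNeu-1 against IG2, higher genes numbered 2 in place of 5 at a fold of 2, and lower genes 1 in place of 0 in cells numbered 078. In no state against Multi-Lin-1, higher genes numbered 0 in cells numbered 078, with a pseudocount of 10, by medians and at a fold of 2, and 2 less the cell median, in place of 1. Lower genes there numbered 1 in cells with 3000 or more genes, and 2 with a pseudocount of 10, less the cell median, over detected cells and at a fold of 2, in place of 4. Gpx4 in proNeu-1 against Multi-Lin-1 gave -0.25 in cells with 3000 or more genes, -0.31 by medians, -0.82 less the cell median, -0.38 after regression and -0.05 over detected cells. Txn1 in the same comparison gave -0.35 less the cell median and -0.34 after regression. In no state against Multi-Lin-1, cells with 3000 or more genes gave 0.22 for Prdx1, 0.39 for Prdx2 and 0.52 for Txn1, and detected cells gave 0.38 for Txn1. Pairs at 0.3 or more numbered 8 by Pearson's r and 5 in cells numbered 079, in place of 3. Events with a mean PSI between 0.1 and 0.9 numbered 0 in place of 3 with values in at least 20 cells, where fewer events qualify. The cause of the other changes was not tested. Depth per cell is unknown and limits what a listed 0 can say. No paired analysis was possible because the labels give 1 group and tie no cell of one state to a cell of another. With label number as a term in the fit (also chosen after seeing the data), the counts past the fold were as without it, 5 and 0, 3 and 1, 5 and 0, and 1 and 4 in the order above.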

Other observations

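Gpx3, the secreted glutathione peroxidase, was detected in 9 of 96 cells (9.38%), under the share of 10% needed to count, and is described here after its values were seen. It was found in 7 of 12 proNeu-1 cells, 2 of 31 IG2 cells, 0 of 27 cells without a state and 0 of 26 Multi-Lin-1 cells. Its mean log2 level was 3.98 ± 3.70 in proNeu-1, 0.31 ± 1.28 in IG2, 0.00 ± 0.00 in cells without a state and 0.02 ± 0.11 in Multi-Lin-1.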
